A study of Artemia franciscana with 14 samples.

Results

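Female and male embryos of the brine shrimp *Artemia franciscana* were compared at 4 days post-fertilization (dpf), shortly before the free-swimming nauplii hatch. The comparison used 6 of the 14 samples of the study, 3 embryos labelled female (replicates 7, 10 and 11) and 3 labelled male (replicates 2, 5 and 8), all of the samples with this stage in their title. Each sample was the polyA RNA of 1 whole wild-type embryo, and the groups shared the genotype label, tissue and library kit and differed by sex. The study describes its population as non-isogenic, so single embryos may also differ in their alleles. The other samples were 3 female and 3 male embryos at 1–2 dpf (1 of each sex at 1 dpf and the rest at 2 dpf), 1 adult female and 1 adult male. They were used here only to follow the genes that separated the sexes at 4 dpf. Embryos of this age look alike in both sexes, so the authors assigned sex from expressed SNPs on the Z chromosome, and no marker gene for sex was at hand to check the label. The RNA of a single embryo lay below the detection limit of the quantification, so the libraries started from an unknown and possibly unequal amount.

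*Artemia* has a ZW system, in which females carry a Z and a W and males carry a pair of Z chromosomes. The old, differentiated part of the Z, Z(diff), has lost most of its partner genes on the W, while the pseudoautosomal region (PAR) still recombines with the W. A female thus has a single copy of a Z(diff) gene where a male has a pair. In *Drosophila*, where males carry the single X, dosage compensation raises the expression of that X through the MSL complex and its acetyltransferase MOF, which acetylates lysine 16 of histone H4 (H4K16ac). Adult *Artemia* females carry H4K16ac over Z(diff). Genes are named by the jg numbers of the assembly that the authors used, and most of them carry no symbol or known function in the files.

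The libraries held between 4674069 and 6007172 counts in females and between 2669131 (male 8) and 7463397 (male 2) in males. Levels are given as CPM, each count relative to the scaled size of its library, and the floor of 3 reads was 0.430 CPM in male 2 and 1.06 CPM in male 8. A score made from 373 genes that were higher and 296 that were lower at 4 dpf than at 1–2 dpf overlapped between the sexes, with 1.60 ± 0.28 (SD, n = 3) in females and 1.65 ± 0.21 (SD, n = 3) in males. The expression profiles did not sort by sex as a whole. Over 8979 genes, the correlation of log2 CPM was between 0.772 and 0.854 for the 6 pairs of embryos of one sex (median 0.823). It was between 0.744 and 0.874 for the 9 pairs of a female with a male (median 0.802), and the most alike pair of all was female 7 with male 5. These correlations are across genes, which are not independent replicates.

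Few genes passed an adjusted test between the sexes at 4 dpf, and those with the smallest p-values were jg20557, jg14521 and jg9994 on the female side and jg1503, jg4204 and jg16244 on the male side. Of 8979 genes tested in edgeR by quasi-likelihood, 0 (0%) had a Benjamini-Hochberg adjusted p-value under 0.05. An unadjusted p-value under 0.05 was found for 317 genes (3.53%), of which 169 (1.88%) were higher in females and 148 (1.65%) in males. The smallest adjusted p-value was 0.0739, for jg1503. DESeq2 gave 26 genes of 8421 (0.309%) with an adjusted p-value under 0.05, 16 (0.19%) higher in females and 10 (0.119%) higher in males. DESeq2 also made false calls on simulated counts without a sex difference, so a call by DESeq2 alone does not show such a difference. Those counts were drawn with the spread that edgeR had estimated, so they cannot rank the tools. The p-values of DESeq2 are given beside those of edgeR. The levels of 25 of these 26 genes did not overlap between the sexes. The exception was jg9737, which lay at 5.81, 54.9 and 85.1 CPM in females and at 6.74, 1.96 and 1.06 CPM in males.

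The spread between embryos was wide, with a biological coefficient of variation of 0.673, and the median absolute log2 fold change (log2FC) between the sexes was 0.39 over all genes tested. Levels, scaled by TMM within this stage, did not overlap between the 3 females and the 3 males for 978 genes (10.9%). All 3 females were above all 3 males for 475 of them (5.29%), and all 3 males above all 3 females for 503 (5.6%). With labels unrelated to level, 3 against 3 embryos separate fully, in either direction, with a probability of 0.1. The share of 10.9% is close to this, so separation alone does not show a sex difference in a gene. Since whole embryos were sequenced, fewer cells of a type and less RNA per cell cannot be told apart in any of these values. Nothing in the labels says whether embryos of a group came from different mothers, so p-values measure the spread between these embryos only.

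**Figure D1:**
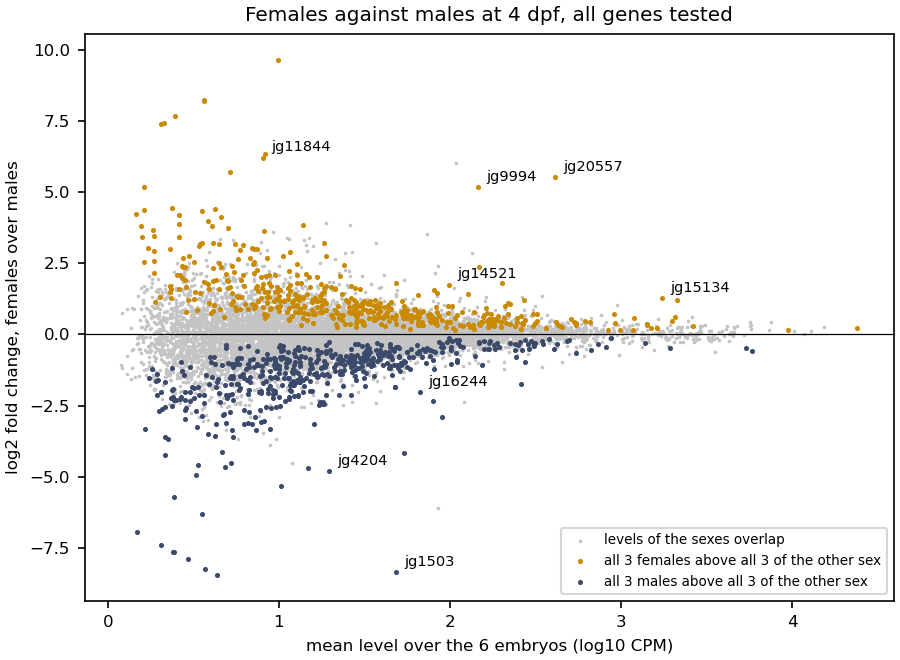
Each point is a gene tested at 4 dpf. The x axis gives its mean level over the 6 embryos (log10 CPM) and the y axis its log2 fold change of females over males, with colour for genes whose levels did not overlap between the sexes. jg20557 and jg9994 combined a high level with log2 fold changes of 5.53 and 5.18, and jg1503 lay lowest among the labelled genes at -8.34.

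Among genes higher in females, jg20557 combined the largest difference with a high level. It stood at 1734, 346 and 328 CPM in females 7, 10 and 11 and at 21.5, 14.2 and 16.2 CPM in males 2, 5 and 8. The lowest female was far above the highest male, and the females differed among themselves more than the males did, with female 7 on top. The ratio of the means was 46.4, with a log2FC of 5.53 (standard error (SE) 0.74, adjusted p = 0.172 from edgeR and 1.9e-19 from DESeq2). Without female 7, the log2FC was 4.27 with an adjusted p of 0.00587 from edgeR. jg20557 passed edgeR in no other fit with a single embryo of 4 dpf left out.

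A pair of genes that are neighbours in the count table, jg11844 and jg11845, was also higher in all 3 females, and both were again highest in female 7. jg11845 stood at 463, 132 and 144 CPM in females and at 29.3, 58.1 and 55.0 CPM in males (log2FC 2.38, SE 0.54, adjusted p = 0.999 from edgeR and 0.00287 from DESeq2). jg11844 stood at 33.4, 5.65 and 8.84 CPM in females, and had 0, 3 and 0 reads in males. Its pooled read rate was 79.9 times that of males, with an exact 95% counting interval of 27.0 to 390. This interval, like the later ones, covers the counting of pooled reads and not the spread between embryos. Of the 233 female reads, 161 came from female 7. By its reads, the sex difference of jg11844 was nearly one of presence and absence, while jg11845 was well expressed in both sexes.

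jg9994 was even among females, at 295, 290.2 and 265 CPM, and uneven among males, at 18.1, 2.49 and 1.76 CPM. The sexes were far apart, and the log2FC was 5.18 (SE 0.82, adjusted p = 0.298 from edgeR and 2.5e-12 from DESeq2). Most of the male mean came from male 2, and without this embryo the log2FC was 7.01 with an adjusted p of 0.00141 from edgeR. jg9994 passed edgeR in no other fit with a single embryo left out. jg14521 was even in both sexes, at 130.4, 168 and 159 CPM in females and at 36.4, 50.5 and 49.7 CPM in males. Its log2FC was 1.75 (SE 0.27, adjusted p = 0.289 from edgeR and 9.8e-06 from DESeq2).

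Genes of high level with a smaller difference were jg8673, jg15134 and jg10387. jg8673 stood at 2525, 2648 and 3675 CPM in females and at 1693, 1142 and 954 CPM in males (log2FC 1.22, SE 0.25). jg15134 stood at 1732, 2607 and 3037 CPM in females and at 1079, 752 and 1195 CPM in males (log2FC 1.29, SE 0.26). jg10387 stood at 361, 407 and 361 CPM in females and at 161, 199.6 and 133 CPM in males (log2FC 1.19, SE 0.22). Each of the 3 was a little over 2-fold higher in females by the means, without overlap, and passed DESeq2 (adjusted p between 0.000851 and 0.00506) but not edgeR (adjusted p between 0.712 and 0.999).

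The remaining leading genes on the female side were low. jg11972 stood at 14.7, 35.3 and 27.4 CPM in females and at 1.72, 0.355 and 3.52 CPM in males, a ratio of means of 13.8. jg10450 stood at 2.28, 32.5 and 14.6 CPM in females and had at most 2 reads in a male, and its pooled read rate was 89.5 times that of males (exact 95% counting interval 30.3 to 437). jg15020 stood at 6.43, 5.65 and 18.6 CPM in females against 3 reads in male 2 and 0 in the other males, 50.4 times the male rate (16.9 to 247). All 3 passed DESeq2, with adjusted p-values between 0.00353 and 0.034.

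**Figure D2:**
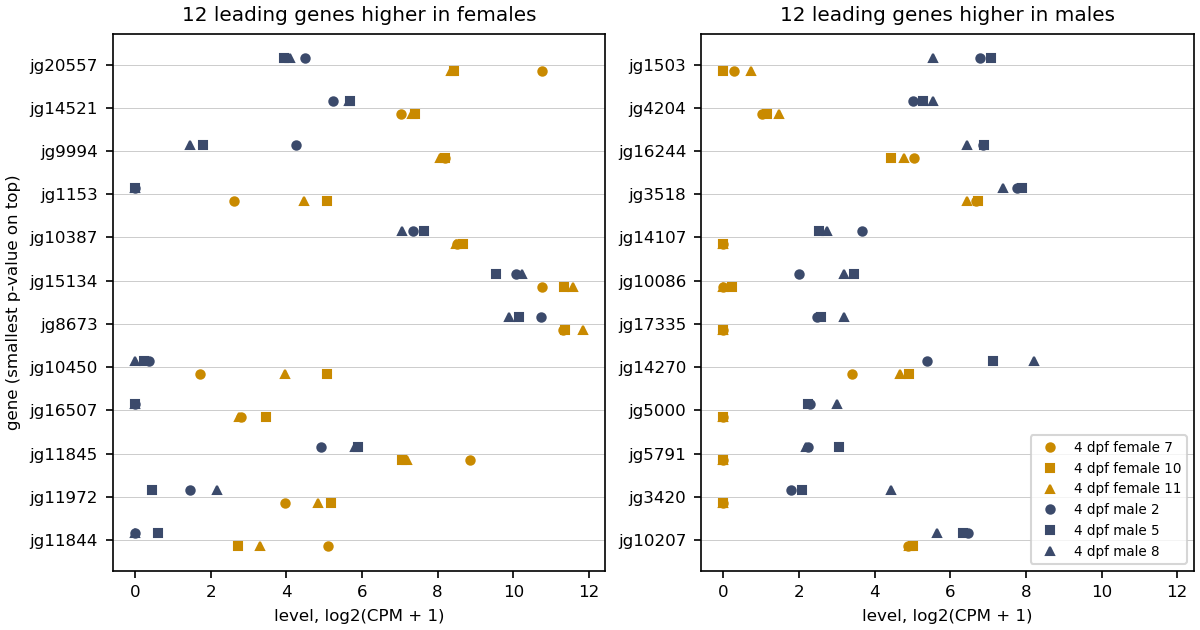
The x axis gives the level, log2(CPM + 1), of each of the 6 embryos at 4 dpf, for the 12 genes with the smallest unadjusted p-values in each direction among genes without overlap. Females 10 and 11 lie close together for jg20557 with female 7 apart, and for jg1503 and 6 other genes of the right panel the females lie at or near 0.

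Among genes higher in males, jg1503 had the smallest p-value of all genes tested. It had 1, 0 and 3 reads in females 7, 10 and 11 (0.207, 0 and 0.663 CPM) and stood at 109, 134 and 45.4 CPM in males 2, 5 and 8. Every male was well above every female, and the pooled read rate of males was 399 times that of females (exact 95% counting interval 156 to 1466). The adjusted p was 0.0739 from edgeR and 3.8e-17 from DESeq2. jg4204 was also nearly absent in females, at 1.04, 1.24 and 1.77 CPM against 31.3, 37.5 and 45.4 CPM in males (log2FC -4.80, SE 0.56, adjusted p = 0.0892 from edgeR and 2.3e-11 from DESeq2).

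jg16244 and jg3518 were expressed in every embryo, and their levels were even within each sex. jg16244 stood at 31.7, 20.6 and 26.5 CPM in females and at 117, 118 and 86.0 CPM in males (log2FC -2.02, SE 0.31, adjusted p = 0.289 from edgeR and 1.2e-05 from DESeq2). jg3518 stood at 102, 104 and 86.4 CPM in females and at 218, 239 and 167 CPM in males (log2FC -1.09, SE 0.24, adjusted p = 0.999 from edgeR and 0.0156 from DESeq2). jg14270 was more uneven, at 9.54, 29.3 and 24.3 CPM in females and 40.7, 139 and 297 CPM in males (log2FC -2.91, SE 0.72), and was highest in male 8, the library with the fewest counts. jg20415 stood at 1.45, 0 and 0 CPM in females and at 36.0, 18.5 and 5.64 CPM in males, which did not overlap either.

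jg22016, an uncharacterized gene whose protein holds a Tudor domain (a domain that binds methylated residues) according to the study, was higher in males. It stood at 10.8, 5.47 and 0.663 CPM in females and at 30.0, 33.4 and 243 CPM in males, with a log2FC of -4.16 (SE 1.12, adjusted p = 0.999 from edgeR and 0.00333 from DESeq2). Much of the male mean came from male 8, but the other males were also above every female. Without male 8, the log2FC was -2.50 and the gene did not pass edgeR. At 1–2 dpf the sexes overlapped and the mean was higher in females. jg22016 then stood at 331, 628 and 300 CPM in females 3, 9 and 12 and at 451, 9.82 and 6.83 CPM in males 1, 2 and 3.

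Some genes had reads in one sex only. Among 13695 genes with reads at 4 dpf, 15 (0.11%) had at least 3 reads in each female and 0 in all males, and 18 (0.131%) had at least 3 reads in each male and 0 in all females. On the female side, the genes with the most reads were jg1153, jg16507, jg9869, jg11182 and jg10118. jg1153 stood at 5.18, 33.0 and 21.2 CPM in females 7, 10 and 11, at least 18.7-fold higher than in males, where the bound sets the male level at 3 reads in male 8. The bounds of the other 4 genes lay between 4.67-fold and 6.94-fold. On the male side, jg3420 (2.44, 3.20 and 20.4 CPM) and jg14107 (11.8, 4.80 and 5.64 CPM) had the largest bounds, at least 13.1-fold and at least 11.2-fold higher than in females, taking 3 reads in female 11 as the female level. jg17335, jg17907, jg5000 and jg5791 followed with bounds between 7.31-fold and 8.88-fold. These genes were low, and absence from one sex was not detectable below the floor of 3 reads.

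Most differences between the sexes in abundant genes were small. Of 1446 genes with a mean of at least 100 CPM, 150 (10.4%) did not overlap between the sexes, close to the share over all genes. All 3 females were higher for 92 (6.36%) and all 3 males for 58 (4.01%). The median absolute log2FC of these genes was 0.43 on the female side, where 10 of the 92 exceeded 1, and 0.39 on the male side, where 3 of the 58 exceeded 1. Beyond the genes above, the largest on the female side were jg9246, a gene of the PAR (108, 432 and 397 CPM in females, 102, 91.0 and 78.2 CPM in males), and jg1453 (158, 177 and 225 CPM in females, 135, 1.24 and 71.2 CPM in males). For jg9246 female 7 lay barely above male 2, and for jg1453 the difference in means came mainly from male 5. On the male side, jg16336 (108, 121 and 125 CPM in females, 157, 787 and 255 CPM in males) was highest in male 5, while jg17082, jg1885 and jg12731 were between 1.95 and 2.07 times higher in males by the means. jg9246 passed DESeq2 (adjusted p = 0.0282), and jg1453, jg16336, jg17082, jg1885 and jg12731 passed neither edgeR nor DESeq2.

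The rules that picked the genes above used values of 4 dpf only, and only some of the differences were seen at 1–2 dpf. jg22016 was also picked by the study, whose comparison of introns included the embryos of 1–2 dpf. At that stage edgeR gave 0 genes of 8089 (0%) with an adjusted p-value under 0.05 between the sexes and 490 (6.06%) with an unadjusted one, and 1357 genes (16.8%) did not overlap. The stage score there was -3.63, -4.21 and -4.99 in females 3, 9 and 12 and -3.45, -3.81 and -3.75 in males 1, 2 and 3. Female 12 had 6414 genes with reads, against 10045 to 10842 in the other embryos. Whether stage or library quality shares in the sex differences at 1–2 dpf, or in the interactions with stage, was not tested. Of 7676 genes tested at both stages, 833 separated the sexes at 4 dpf and 1300 at 1–2 dpf. They separated in the same direction at both for 96 genes, 11.5% of the former and 7.38% of the latter, and in opposite directions for 35. Of the 12 leading genes on the female side, 10 could be tested at 1–2 dpf, and 6 had the same sign there, 5 of them without overlap. On the male side 7 could be tested, 4 had the same sign and 0 of them separated the sexes. Over all genes tested at both stages, 53.2% had the same sign.

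jg20557 and jg11844 separated the sexes at both stages. At 1–2 dpf, where levels were scaled over the 6 embryos of that stage, jg20557 stood at 3865, 6595 and 5316 CPM in females 3, 9 and 12 and at 554, 55.8 and 99.6 CPM in males 1, 2 and 3 (log2FC 4.48, SE 0.89, adjusted p = 0.74 from edgeR). jg11844 was even at 69.5, 69.9 and 57.4 CPM in females and had 4, 6 and 8 reads in males (log2FC 5.55, SE 0.62, adjusted p = 0.156 from edgeR). In the adults, with 1 sample per sex and no test, the level of jg20557 stood at 848 CPM in the female and 7.60 CPM in the male. jg11844 stood at 64.0 CPM in the adult female and had 0 reads in the adult male, at least 39.3-fold lower at the floor of 3 reads.

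When sex was fitted over all 12 embryos with the stage as a term, a comparison added after the data had been seen, 2 genes of 9833 (0.0203%) had an adjusted p-value under 0.05 from edgeR, and both were higher in females. They were jg20557 (log2FC 4.98, adjusted p = 0.0097) and jg11844 (log2FC 5.79, adjusted p = 0.0097). Each passed in 11 of the 12 fits with an embryo left out. Without male 8 of 4 dpf, neither passed, with an adjusted p of 0.0679 for jg20557 and 0.0595 for jg11844. DESeq2 gave 18 genes in this comparison. Neither gene lies in a long run of consecutive numbers in the table that would place it, so the chromosome of each is not given here.

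jg11845, jg14521 and jg16507 were also higher in all 3 females at 1–2 dpf. jg11845 stood at 228, 127 and 117 CPM in females and 47.0, 73.3 and 105 CPM in males, and at 57.4 and 12.5 CPM in the adult female and male. jg14521 stood at 21.7, 68.8 and 16.5 CPM in females and 16.3, 3.83 and 5.29 CPM in males. The gap was thus narrower than at 4 dpf for jg11845, and for jg14521 the lowest female and the highest male nearly met. jg16507, without reads in males at 4 dpf, was present in males at 1–2 dpf (14, 10 and 1 reads) and the adult male had 35 reads of it against 0 in the female.

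Other genes had the opposite order at the earlier stage. jg9994 was lower in all 3 females at 1–2 dpf, with 83.5, 67.2 and 20.1 CPM against 234, 111 and 263 CPM in males. The sex by stage interaction, the log2FC at 4 dpf minus that at 1–2 dpf, was 7.03 (SE 1.11, adjusted p = 0.0883 from edgeR over 9833 genes). jg15134 stood at 51.2, 42.9 and 109.6 CPM in females and at 164, 423 and 1177 CPM in males at 1–2 dpf, with an interaction of 4.43 (SE 0.83, adjusted p = 0.269 from edgeR). Of the leading genes on the male side, jg4204 overlapped between the sexes at 1–2 dpf (2.58, 26.4 and 28.5 CPM in females, 0, 9.10 and 33.7 CPM in males) and the adult female had 92 reads of it against 0 in the male. jg1503 was at 138 CPM in male 3 at 1–2 dpf but at 4.79 CPM or less in the other 5 embryos. It stood at 50.9 CPM in the adult female and at 16.8 CPM in the adult male. jg14270 was also higher in the adult female (147 against 22.3 CPM), while jg3518 was higher in the adult male (232 against 32.9 CPM). Over all genes, edgeR gave 0 interactions (0%) with an adjusted and 543 (5.52%) with an unadjusted p-value under 0.05, and DESeq2 gave 35 with an adjusted one.

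**Figure D3:**
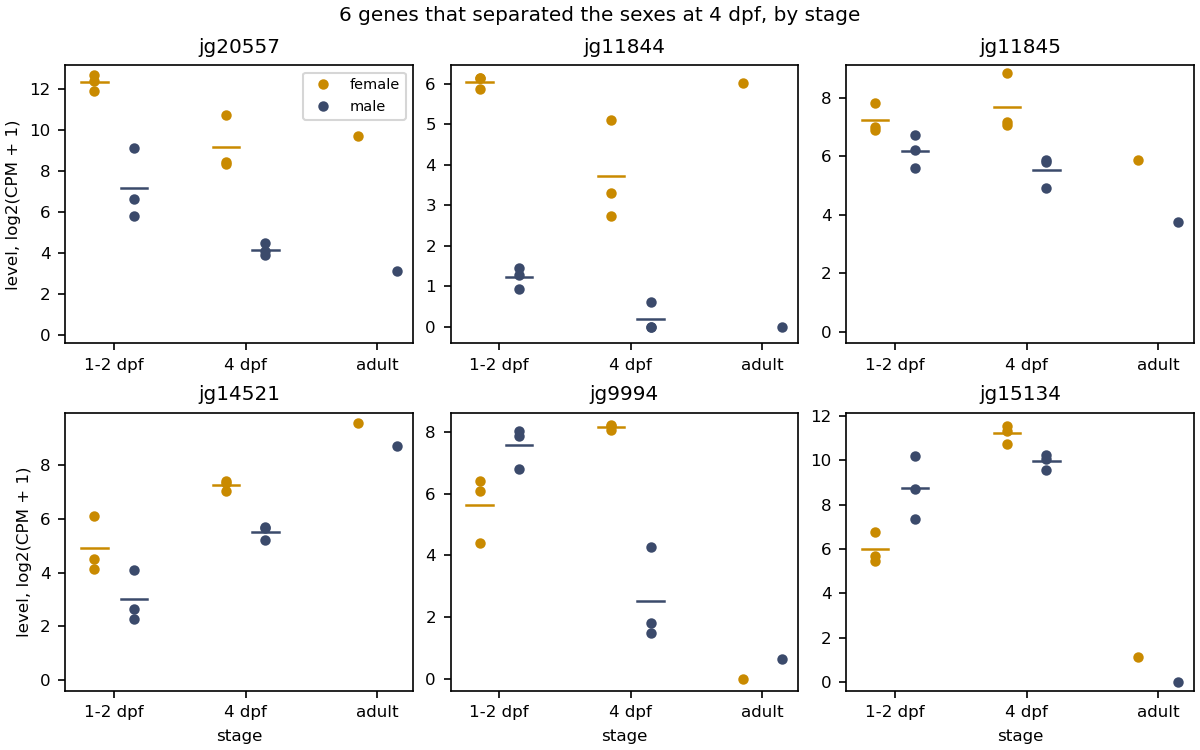
Levels, log2(CPM + 1), of 6 genes in single samples (points) by stage and sex, with the group mean as a line (n = 3 embryos per sex and stage, 1 adult per sex, scaled separately by stage). jg20557 and jg11844 were higher in females at every stage, and jg9994 and jg15134 changed order between 1–2 dpf and 4 dpf.

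Z(diff) genes, present in a single copy in females, showed no shared lean to one sex at 4 dpf. Of 176 Z(diff) genes in the table, 133 had reads at this stage and 95 were tested. Of the 95, 0 were called by edgeR, 6 had an unadjusted p-value under 0.05, and 9 separated the sexes, 5 with higher levels in females and 4 in males. The shares over all genes tested were 0% called, 3.53% with an unadjusted p-value under 0.05 from edgeR and 10.9% separated. Among the 58 with a mean raw count above 100, 31 were higher and 27 lower in females and the median log2FC was 0.070, against -0.011 over all 4601 genes above this count. Of the 58, 3 (5.17%) separated the sexes, against 10.1% of 4034 genes counted as autosomal by their number alone.

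The 3 Z(diff) genes above this count that separated the sexes differed by less than 1 on the log2 scale. jg9936 stood at 230, 174 and 173 CPM in females and at 105, 169 and 113 CPM in males (log2FC 0.57, SE 0.26). jg9814 stood at 29.6, 28.4 and 32.0 CPM in females and at 45.5, 46.8 and 62.7 CPM in males (log2FC -0.78, SE 0.34). For jg9810, females lay between 234 and 244 CPM and males between 254 and 369 CPM.

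The other 6 of the 9 were less abundant, and those not named by the rule for named genes are given after their values had been seen. jg9780 had 58, 201 and 228 reads in females and 0, 33 and 25 reads in males (log2FC 2.77, SE 1.26, unadjusted p = 0.0572 from edgeR). It also separated the sexes at 1–2 dpf, where the lowest female, at 49.6 CPM, was just above the highest male, at 47.2 CPM. jg9887 (log2FC 3.88) and jg9917 (log2FC 1.93) were also higher in females, and jg9796 (log2FC -1.37) and jg9833 (log2FC -1.49) were higher in males, all with means under 25 CPM in both sexes. The only Z(diff) gene among those called by DESeq2 was jg9869, at 7.05, 12.5 and 2.43 CPM in females with 0 reads in the males of 4 dpf. The males of 1–2 dpf had 56, 1 and 44 reads of it. By number, jg9737 and jg9994 lie outside these limits of Z(diff), but within the wider limits that were used as an alternative. DESeq2 called both, with higher means in females, so the count of called Z(diff) genes depends on the limits.

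Within the set of 58, the largest fold changes came from single embryos. jg9811 stood at 192 CPM in female 10 and at 14.2 CPM or less in the other 5 embryos, and jg9902 stood at 90.5 CPM in female 7 and at 14.7 CPM or less in the others. The Z(diff) level of an embryo, its mean log2 CPM over the 58 genes minus that over the 4034 autosomal genes, was -0.10, -0.037 and 0.0050 in females and -0.068, -0.087 and -0.21 in males. The sexes overlapped, with females 0.079 above males on average (exact two-sided permutation test, p = 0.3, where 3 against 3 allow no p under 0.1). With narrower limits of Z(diff) (49 genes), all 3 females lay above all 3 males, by 0.095 on average (exact two-sided permutation test, p = 0.1, the smallest possible). With another count minimum or wider limits, the difference moved to -0.0076 or 0.15.

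**Figure D4:**
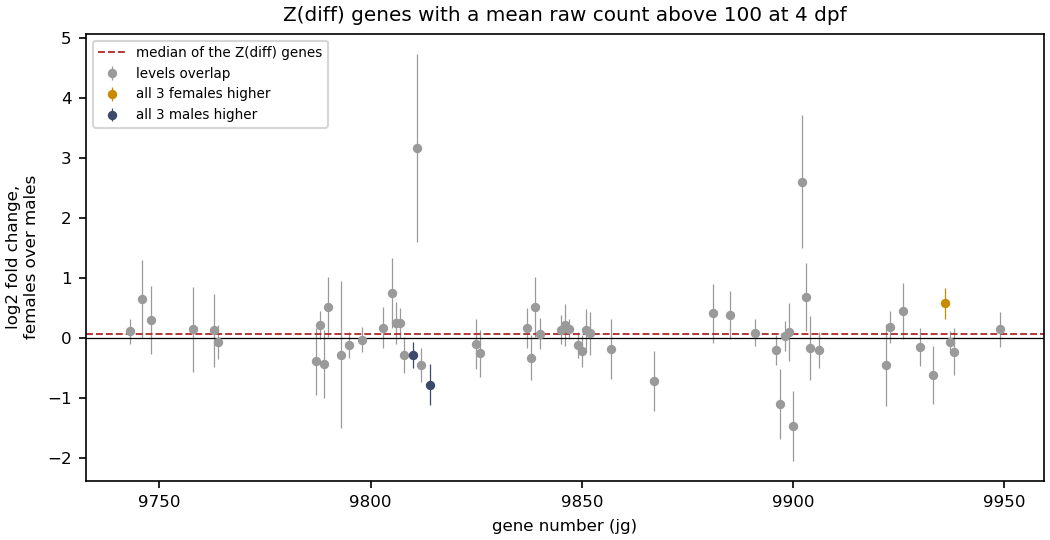
Log2 fold change of females over males (points, with the standard error as bars) of 58 Z(diff) genes by gene number (jg), which follows the order of genes along the chromosome only roughly. The dashed line is the median, 0.070, and genes without overlap between the sexes are coloured. Most genes lie within 1 of 0, and the 2 points above 2.5 are jg9811 and jg9902.

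Genes of the PAR, of which both sexes have a pair, were spread in the same way. Of 102 PAR genes with a mean raw count above 100, 47 were higher and 55 lower in females, with a median log2FC of -0.030. Of these, 5 separated the sexes with higher levels in females and 4 with higher levels in males (8.82%). Apart from jg9246, the one with an unadjusted p-value under 0.05 was jg8989 (log2FC -0.94, SE 0.34).

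The MSL genes did not separate the sexes at 4 dpf, and 0 of the 5 were called by edgeR, by its unadjusted p-value or by DESeq2. MOF (jg3349), the acetyltransferase of the complex in *Drosophila*, stood at 20.5, 37.6 and 51.3 CPM in females and at 47.2, 19.6 and 5.64 CPM in males (log2FC 0.58, SE 0.71). MSL2 (jg13090), the subunit with a RING domain that is limited to males in *Drosophila*, was low at 7.26, 8.29 and 4.86 CPM in females and at 7.74, 3.20 and 0 CPM in males. MSL1 (jg9702), the scaffold, stood at 23.4, 33.3 and 30.1 CPM in females and at 13.9, 38.9 and 19.4 CPM in males. Male 8 was the lowest of the 6 embryos for MOF and MSL2, and it had the fewest counts of the 6. The helicase DHX9/MLE (jg10843) and MSL3/MRG15 (jg12255), a chromodomain protein, had log2FC of -0.13 (SE 0.28) and 0.072 (SE 0.37). Of the 5 genes, 4 were higher and 1 was lower in females, with a median log2FC of 0.26 against -0.012 over all genes tested. The signs of MSL1, DHX9/MLE and MSL3/MRG15 changed when single embryos were left out.

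The other 4 acetylation genes were lower in females by their means, with a median log2FC of -0.47, and 0 were called by these tests either. The acetyltransferase TIP60 (jg7034) did not overlap, at 1.45, 7.94 and 1.99 CPM in females and 11.5, 18.1 and 14.4 CPM in males (log2FC -1.94, SE 0.86, adjusted p = 0.999 from edgeR and 0.895 from DESeq2). The acetyltransferase CBP (jg3149) stood at 37.3, 39.9 and 14.6 CPM in females and at 68.8, 63.8 and 24.7 CPM in males, which overlapped. GCN5 (jg16372), another acetyltransferase, and the deacetylase SIRT1 (jg8800) had log2FC of -0.093 (SE 0.35) and -0.15 (SE 0.24), and the sign of GCN5 changed without female 7. At 1–2 dpf the levels of TIP60 overlapped (8.53, 2.16 and 0 CPM in females, 12.7, 1.92 and 7.49 CPM in males).

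**Figure D5:**
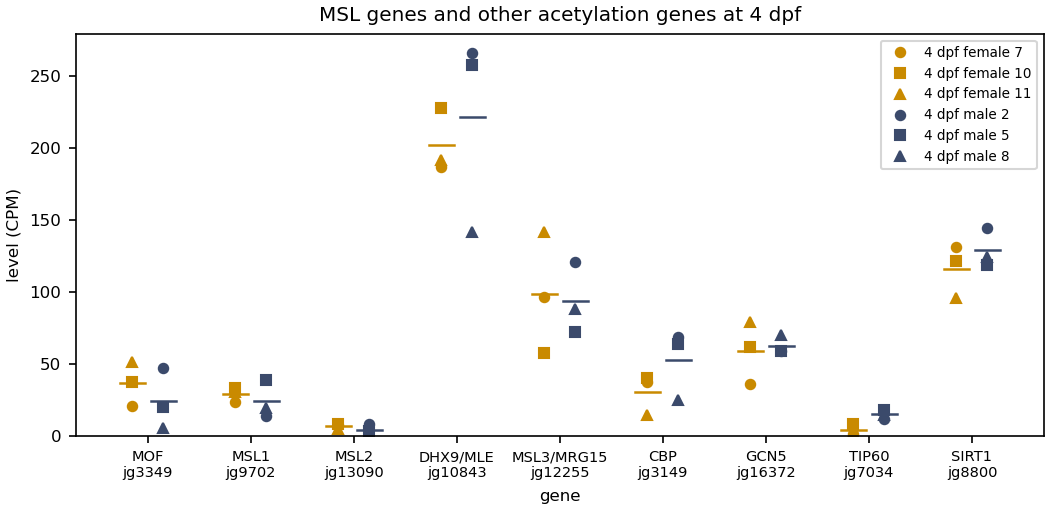
Level (CPM, linear axis) of 5 MSL genes and 4 other acetylation genes in each embryo at 4 dpf, with the group mean as a line (n = 3 per sex). The sexes overlap for 8 of the 9 genes, and for TIP60 all 3 males lie above all 3 females.

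The genes that the study used for quantitative PCR were close between the sexes. Of the 4 on Z(diff) (jg9743, jg9787, jg9907 and jg9949), 3 were higher in females, and their log2FC lay between -0.36 and 0.17. The 3 of the PAR (jg8968, jg9092 and jg9331) lay between -0.0082 and 0.24, and the reference genes jg15373 and jg3163 at -0.46 and -0.063. None of these 9 genes separated the sexes. Of the 4 genes with introns inspected in the study, jg22016 separated the sexes as described. jg5037, related to a serine/arginine repetitive matrix protein, was at 5124, 5526 and 4963 CPM in females and at 7025, 4675 and 4111 CPM in males. At 1–2 dpf it had been lower in all 3 females, with 5 to 22 reads against 231 to 987 in males, so the difference at that stage was not seen at 4 dpf (interaction 5.19, SE 0.79, adjusted p = 0.0883 from edgeR).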

How the data were processed

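The authors trimmed, mapped and counted reads with the Cogent pipeline and deposited raw counts per gene from all reads, not collapsed by unique molecular identifier, so PCR copies count separately and intervals cover counting error only. The genome build is not given in the sources used here by name. Columns were assigned to samples by barcode. Of 19421 genes, 19354 carry jg numbers, and regions were set by number (Z(diff) jg9743 to jg9949, PAR jg8968 to jg9331, between genes the study places there). Genes with numbers well below or above these were counted as autosomal without a known chromosome. Genes of the W or of unplaced sequence may be among them. Counts were tested in R 4.3.3 with edgeR 4.0.16 (filterByExpr, TMM, quasi-likelihood F test, Benjamini-Hochberg threshold 0.05) and with DESeq2 1.42.0 as an alternative. SE is the absolute log2FC divided by the square root of F. Z(diff) levels used a prior count of 2. Plots were made with matplotlib 3.10.9 (Python 3.11.15). Methods were tested on simulated data.

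Named genes are, per direction, the 12 with the smallest p-value without overlap, the 5 with the largest log2FC among those of at least 100 CPM on average, DESeq2 calls without overlap, up to 5 genes with reads in one sex only, and the genes that the study gives by jg number. Members and lists were chosen with earlier results of these data known. No pair of libraries held identical values. The alternatives were other scalings, filters, tools, limits of Z(diff), a stage covariate, all 12 embryos in the fit and embryos left out.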

Additional observations from a re-analysis of the deposited data

Results flagged for a closer look

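The difference between the sexes at 4 dpf minus that at 1–2 dpf was tested for every gene. jg9994 was higher in all 3 females at 4 dpf and in all 3 males at 1–2 dpf, with an interaction of 7.03 on the log2 scale (adjusted p = 0.0883 from edgeR). jg15134 changed order in the same way, with 4.43 (adjusted p = 0.269 from edgeR). jg1153 had reads in females only at 4 dpf and in males only at 1–2 dpf (2, 166 and 7 reads). Its interaction of 18.5 (adjusted p = 0.633 from edgeR) rests on the prior count added to libraries with 0 reads and is no measure of size. None of the 3 passed the threshold.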

How the results depend on the processing

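No paired analysis was possible because the females and males at 4 dpf share no replicate numbers. With edgeR, 0 genes were called at 4 dpf, also with RLE or upper-quartile scaling, with all 12 embryos in the fit and with a stage covariate. DESeq2 called 26, no filter on low counts gave 4 (jg1503, jg20557, jg4204 and jg9994) and a stricter filter gave 1 (jg1503). With one embryo left out, 0 to 3 were called: 3 without female 7 (jg1529, jg20557 and jg7759) and 2 without male 2 (jg9097 and jg9994). Unadjusted calls numbered 552 without a filter, 199 with the stricter filter and 233 to 612 with one embryo left out, and of the 317 genes 53.3% were higher in females, against 37.5% without female 10 and 61.4% without male 5. Genes without overlap numbered 467 with the stricter filter and 1677 to 2434 with one embryo left out, since fewer embryos overlap less often. The difference in Z(diff) level was -0.0076 above a mean count of 500, 0.15 with the wider Z(diff) and 0.062 to 0.13 with one embryo left out, and the median log2FC of Z(diff) was -0.071 with the wider limits and -0.016 to 0.10 with one left out. DESeq2 gave 35 interactions of sex and stage, and edgeR 0 to 22 with one embryo left out, the 22 without male 1 of 1–2 dpf. Sex over both stages, added after the data were seen with its alternatives, gave 18 genes with DESeq2, 3 without a filter and 0 to 4 with one embryo left out. The cause of these shifts was not tested. No named gene that separated the sexes changed sign under an alternative. This was nearly fixed in advance, since levels without overlap stay apart when an embryo is left out. The threshold was passed in 32 refits of named genes, 25 of them with DESeq2. Of the named genes with overlap, 10 changed sign, and with one embryo left out their log2FC ranged from -0.39 to 0.020 (jg10843), -0.28 to 0.35 (jg12255), -0.36 to 0.16 (jg16372), -2.70 to 0.32 (jg22222), -0.31 to 0.14 (jg3163), -0.19 to 0.25 (jg5037), -0.18 to 0.19 (jg8968, 0.0022 without a filter), -0.013 to 0.80 (jg9702), -1.15 to 0.11 (jg9787) and -0.40 to 0.42 (jg9907). With 3 embryos per sex and a coefficient of variation of 0.673, a difference that missed the threshold, even a large one, is not shown to be absent.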

Other observations

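Several genes were high in some embryos and almost absent in others without following sex, and these were picked out after their values had been seen. jg1529 stood at 337 and 299 CPM in females 10 and 11, at 0.207 CPM in female 7 and between 2.67 and 3.87 CPM in the 3 males. jg7759 was low in the same females 10 and 11 (1.06 and 0.884 CPM) and stood at 79.2 CPM in female 7 and between 48.8 and 82.1 CPM in males. jg9097, a gene of the PAR, stood between 124 and 145 CPM in the 3 females, at 357 CPM in male 2 and at 0.533 and 0.705 CPM in males 5 and 8. jg17559 had 256 CPM in female 7 and 203 and 312 CPM in males 5 and 8, against 7.03 CPM in male 2 and 1.59 and 0 CPM in females 10 and 11.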
